A study of Homo sapiens with 13 samples.

Results

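The ligands of the bone morphogenetic protein (BMP) branch considered here were BMP2, BMP4, BMP5, BMP6, BMP7, BMP8B, GDF6 and GDF11. These 8 of the 61541 genes listed in each count table were picked by gene name, with earlier results of these data known. Their RNA was followed in RUES2, a line of human embryonic stem cells, of the genotype GFP::SMAD4, in which the signal transducer SMAD4 carries a fluorescent tag. In the time series, cells in mTeSR1 medium received 100 ng/mL BMP4 protein and 5 µM IWP2, which blocks Wnt secretion, and were collected after 0, 4, 12, 20, 28 and 42 h. In the dose response, cells were collected at 5 h, either untreated or with the same BMP4 and IWP2 plus 0, 10, 30, 100 or 300 nM of LDN-193189, here LDN, which blocks the type I receptors of BMP. ROCK inhibitor was in the medium of all groups, and all cells carried the tagged SMAD4. The labels name the BMP4 and IWP2 treatment for the 0 h samples too. There was 1 library a group, apart from 2 at 0 h. No label says that these 2 came from separate cultures, so their spread may be technical.

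BMP ligands are secreted dimers that assemble type I and type II receptor kinases on the cell surface. The type I receptor phosphorylates SMAD1, SMAD5 and SMAD9, which enter the nucleus with SMAD4 and bind DNA. GDF11 is the exception in this list, since it mainly uses activin-type receptors and SMAD2 and SMAD3. The BMP4 given to the cells was a protein, so BMP4 reads came from the cells' own gene. In human embryonic stem cells, BMP with Wnt blocked is known to lead toward amnion-like cells.

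RNA levels are given in CPM, counts scaled to the total of a library, and comparisons between genes in TPM, which takes gene length into account. Library totals ranged from 37957385 to 71333471 counts in the time series and from 15600931 to 33989998 in the dose response, the lowest being the untreated library. The 2 experiments used different RNA extraction kits and library preparations, with ribosomal RNA depletion in the time series and polyA selection in the dose response, so no level was compared across them. Mitochondrial genes took 7.60% and 4.29% of counts in the 0 h libraries, 2.01% to 4.235% at later times, 7.895% in untreated cells and 4.22% to 4.49% with BMP4 at 5 h. Markers of pluripotent cells summed to 7176 and 7753 CPM at 0 h and 3614 CPM at 42 h. The log2 change from 0 to 42 h was -6.68 for NANOG, -5.43 for TDGF1, -4.80 for SOX2 and -1.41 for DNMT3B. That of LIN28A was -0.49 and that of POU5F1 -0.01, so these markers did not fall alike. Amnion markers summed to 25.4 and 28.9 CPM at 0 h and 6180 CPM at 42 h. Markers of primitive streak and endoderm, of trophoblast and of neural cells summed to at most 5.43, 6.63 and 2.52 CPM in any time-series library. The trophoblast sum rose from 0.026 and 0.056 CPM at 0 h to its highest at 42 h, where VGLL1 held 6.47 CPM. EOMES, in the primitive streak list, was above 0 h by 3.74 log2 units at 20 h and by 0.37 at 42 h. The part of these shifts in cell makeup in the ligand results was not tested. In bulk RNA, fewer cells of a type and less RNA per cell cannot be told apart.

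BMP4 is on the minus strand of chromosome 14 (chr14:53949736-53958761, GRCh38), and its promoter is shown because its RNA had the largest fold change of the 8. The 2 promoters after it belong to ligands that fell slowly over 42 h and did not pass the test at 5 h. Each runs from 250 bases before to 50 bases from the start site on, 5′ to 3′ on the gene's strand (RefSeq, GRCh38.p14). Capitals mark GGCGCC, the core of a BMP response element, searched on both strands.
BMP4 (chr14:53955001-53955300, minus strand): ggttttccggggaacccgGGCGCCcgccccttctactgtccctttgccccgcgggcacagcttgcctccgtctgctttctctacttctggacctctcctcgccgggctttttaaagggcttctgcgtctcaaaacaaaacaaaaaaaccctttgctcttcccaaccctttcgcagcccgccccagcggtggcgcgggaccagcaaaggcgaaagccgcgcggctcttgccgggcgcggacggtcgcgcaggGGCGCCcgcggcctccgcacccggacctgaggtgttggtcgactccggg
BMP6 (chr6:7725849-7726148, plus strand): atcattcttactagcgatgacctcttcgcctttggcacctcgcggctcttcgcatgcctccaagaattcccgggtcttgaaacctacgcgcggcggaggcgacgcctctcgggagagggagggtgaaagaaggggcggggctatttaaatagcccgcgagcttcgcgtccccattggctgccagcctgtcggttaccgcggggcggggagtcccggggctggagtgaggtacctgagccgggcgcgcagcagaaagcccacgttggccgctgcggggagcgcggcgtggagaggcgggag
GDF11 (chr12:55742872-55743171, plus strand): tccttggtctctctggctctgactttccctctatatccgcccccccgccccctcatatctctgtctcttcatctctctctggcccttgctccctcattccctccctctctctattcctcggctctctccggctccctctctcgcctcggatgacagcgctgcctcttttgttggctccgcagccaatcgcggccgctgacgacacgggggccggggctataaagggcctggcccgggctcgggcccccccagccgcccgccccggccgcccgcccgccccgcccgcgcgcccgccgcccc

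The BMP4 window shown held 2 matches to GGCGCC, which began 232 bases before and 1 base after the start site. RefSeq gives BMP4 another 2 start sites, and neither of their windows held a match. The windows of BMP5, BMP6, BMP8B and GDF11 held none. Among 35116 promoters of the same length, 19.2% held GGCGCC, so a match is common. The SMAD box GTCT was in 84.0% of promoters and in all 7 ligand windows. CATCTG, an E-box, was in none of the ligand windows and in 14.7% of promoters. TATAAA was found 33 bases before the start of GDF11 and 118 bases before that of BMP5, and in 11.5% of promoters. The last 3 motifs were likewise searched on both strands, and none of the 4 is a part of another. These matches describe letters in a window and not binding. BMP2, BMP7 and GDF6 had no entry in the promoter table.

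Per gene length, the ligand RNA of the cells changed from mostly GDF11 to mostly BMP4 over 42 h. The 8 ligands summed to 26.45 and 23.1 TPM at 0 h, and to 43.4, 104.7, 294.3, 269.4 and 193.8 TPM at 4, 12, 20, 28 and 42 h. At 0 h GDF11 came first with 13.8 and 13.4 TPM, 52.0% and 57.8% of the sum. BMP2, BMP4 and BMP7 followed in both 0 h libraries, between 2.27 and 4.21 TPM. Within each library their order was BMP2, BMP4, BMP7. Between libraries the values overlapped: BMP4 in the first (3.62 TPM) was above BMP2 in the second (3.37 TPM). BMP7 in the first (3.36 TPM) was likewise above BMP4 in the second (2.975 TPM). The order of these 3 thus rests on small differences in 2 libraries and was not tested. BMP6 (1.19 and 0.927 TPM), BMP8B (0.210 and 0.130 TPM) and GDF6 (0.0800 and 0.0796 TPM) were lower, each below the one before in both libraries.

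At 4 h BMP7 was second to GDF11, with 15.3 against 19.2 TPM. This TPM of GDF11 was above its 0 h values although its CPM was not, so its share at 4 h depends on the length scaling. At 12 h BMP7 led with 47.85 TPM, 45.7% of the sum, and BMP4 had reached 39.9 TPM. From 20 h BMP4 led: it held 191.0, 202.1 and 164.6 TPM at 20, 28 and 42 h, or 64.9%, 75.0% and 84.9% of the sum. By 42 h GDF6 had 3.59 TPM and had passed BMP2, which had 0.918 TPM. None of these later times had a replicate, so no spread between samples is known for the order at any one of them.

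**Figure D1:**
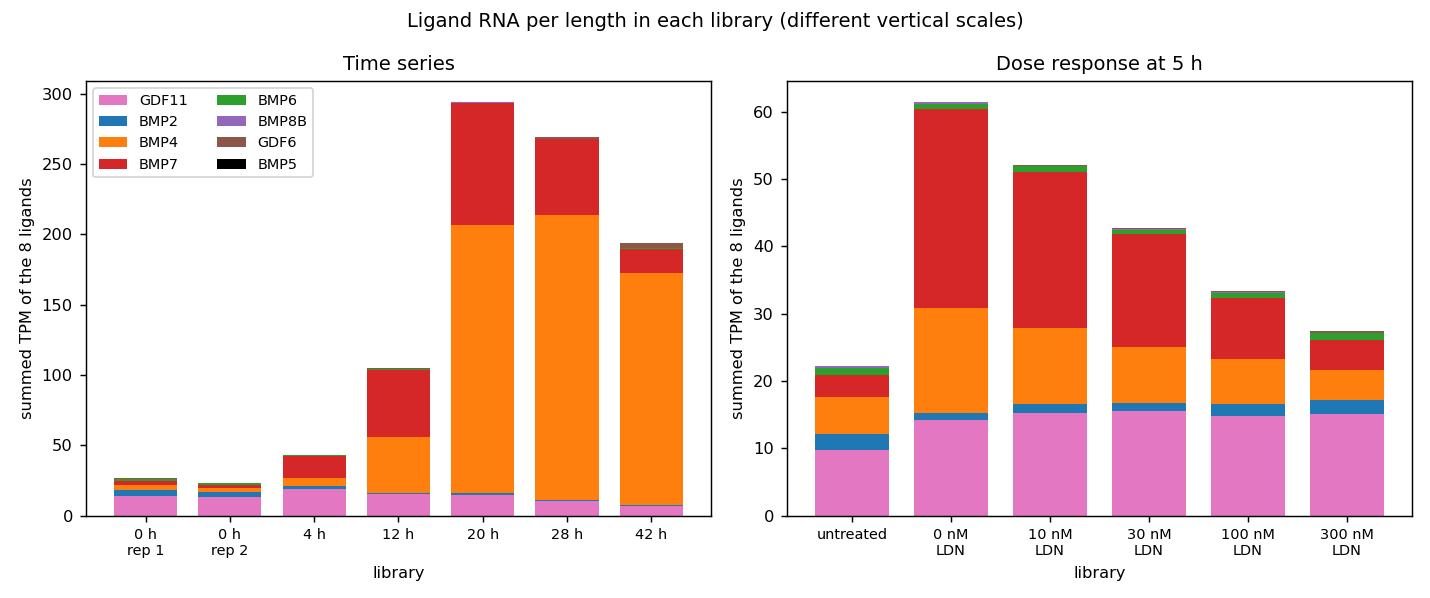
Stacked bars give the summed TPM of the 8 ligands in each library, coloured by ligand, for the time series (left) and the dose response at 5 h (right), each panel with its own vertical scale from 0. In the time series the sum rises from 23.1 and 26.45 TPM at 0 h to 294.3 TPM at 20 h as BMP4 and BMP7 grow, and at 5 h it declines from 61.5 to 27.4 TPM with rising LDN.

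Which ligands differed from 0 h, and when, was asked with time as a factor. BMP7 rose and BMP2 fell by 4 h, BMP4 first passed the test at 12 h and GDF6 at 20 h, while BMP6 fell at 28 and 42 h and GDF11 at 42 h. Of the 7 ligands with a mean of at least 1 CPM, 1 was higher and 1 lower at 4 h, where 5.02% of 15976 genes passed the test, 4.39% as higher and 0.632% as lower. At 12 h 2 were higher and 1 lower (9.68% of all genes, 7.04% higher and 2.64% lower), and at 20 h 3 and 1 (18.5%, 12.4% higher and 6.01% lower). At 28 h 3 were higher and 2 lower (20.3%, 13.3% higher and 7.04% lower), and at 42 h 3 and 3 (37.7%, 19.9% higher and 17.8% lower). GDF6 passed the minimum only through its high libraries at 28 and 42 h, and so had to differ. It is 1 of the 3 counted as higher at 20, 28 and 42 h, and its place there is no evidence. The others were BMP4 and BMP7. The median log2 change of the 7 at 42 h was 0.44, and that of all genes -0.01. Over all later times together, 6 of the 7 changed (34.9% of all genes), the exception being BMP8B (adjusted p = 0.373). Those 6 again include GDF6, which had to differ. These are edgeR quasi-likelihood tests with Benjamini-Hochberg adjustment over all genes tested. The pair at 0 h gave the only residual degree of freedom, and each lone later library was assumed to vary like that pair.

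**Figure D2:**
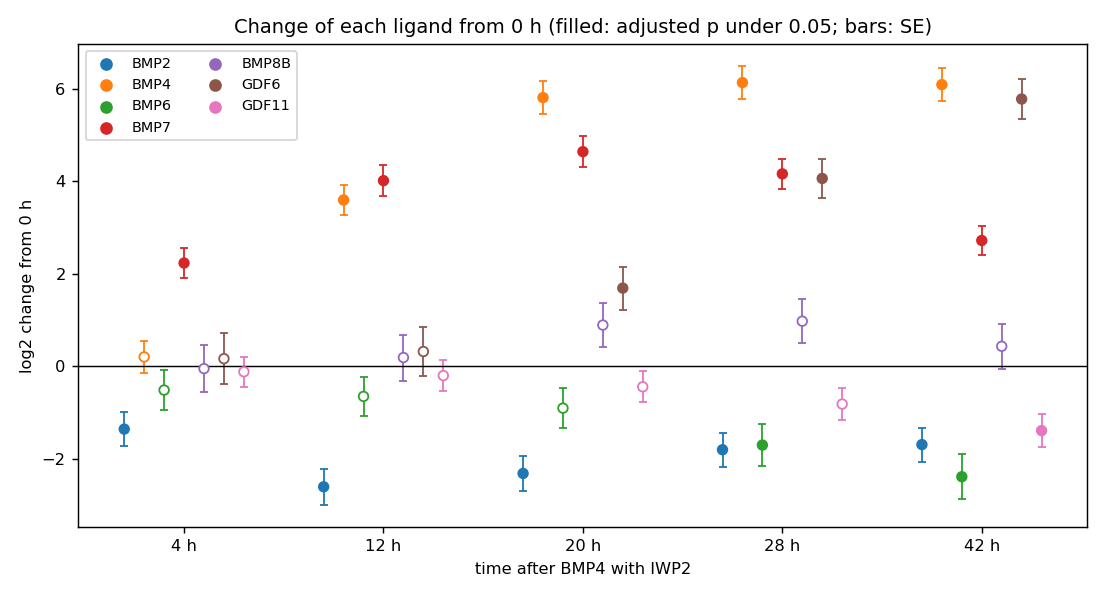
Points give each ligand's log2 change from 0 h (vertical axis) at 4, 12, 20, 28 and 42 h (horizontal axis) in the edgeR fit, bars the standard error, and filled points an adjusted p under 0.05. BMP4 reaches 6.14 at 28 h, BMP7 is highest at 20 h with 4.65, GDF6 climbs to 5.78 at 42 h, and BMP2 lies below 0 at every time.

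BMP4 and BMP2 are close relatives that bind the same type I receptors with high affinity, and their RNA moved in opposite directions. BMP4 stood at 4.53 and 5.09 CPM at 0 h, and then at 5.89, 60.2, 264.4, 323.7 and 279.6 CPM at 4, 12, 20, 28 and 42 h. The libraries from 12 h on were all above both 0 h libraries, and the 4 h library was 1.225-fold above their mean. Relative to the 0 h mean of 4.81 ± 0.394 CPM (SD, n = 2), BMP4 was 12.5-fold, 55.0-fold, 67.3-fold and 58.1-fold higher at 12, 20, 28 and 42 h. At 4 h its log2 change was 0.21 ± 0.35 (SE, adjusted p = 0.999), and at 12 h 3.60 ± 0.33 (adjusted p = 1.0e-24, edgeR). A long noncoding gene on the opposite strand (ENSG00000287156) shares 506 exon bases with BMP4 and reached 17.8 CPM. Whether counting used the strand is not stated, so a part of its reads could be in the BMP4 count.

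BMP2 lies on chromosome 20 (chr20:6767686-6780246, plus strand). It measured 13.75 and 15.2 CPM at 0 h, followed by 6.001, 2.455, 2.84, 3.96 and 3.81 CPM at 4, 12, 20, 28 and 42 h. Every later library was below both 0 h libraries, and the lowest value came at 12 h. Against the 0 h mean of 14.5 ± 1.03 CPM (SD, n = 2), the level was 2.41-fold, 5.90-fold and 3.80-fold lower at 4, 12 and 42 h. The log2 change was -1.355 ± 0.361 at 4 h (SE, adjusted p = 0.0050, edgeR) and -2.60 ± 0.39 at 12 h (adjusted p = 1.5e-09). With DESeq2 the 4 h change was -1.37 with an adjusted p of 0.0647 and so did not pass.

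The BMP5, BMP6, BMP7 and BMP8B proteins form a second class of close relatives, and their genes had separate courses. BMP7 (chr20:57168753-57266641, minus strand) measured 6.30 and 6.38 CPM at 0 h, then 31.7, 105.8, 154.6, 108.4 and 35.5 CPM at 4, 12, 20, 28 and 42 h. The level peaked at 20 h and declined after it, and the 42 h library was still above both 0 h libraries. From the 0 h mean of 6.34 ± 0.0580 CPM (SD, n = 2), BMP7 was 5.00-fold, 24.4-fold and 5.61-fold higher at 4, 20 and 42 h. Its log2 change was 2.24 ± 0.32 at 4 h (SE, adjusted p = 4.7e-10, edgeR) and 2.72 ± 0.32 at 42 h (adjusted p = 7.0e-16). In the same fit its log2 change was -0.48 from 20 to 28 h and -1.92 from 20 to 42 h. This decline rests on 1 library a time, so it is given with no p.

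BMP6 (chr6:7726099-7881728, plus strand), a ligand best known for its part in iron balance, had 4.16 and 4.5 CPM at 0 h. It then stood at 3.22, 2.85, 2.26, 1.27 and 0.703 CPM at 4, 12, 20, 28 and 42 h. Each library was below the one before it, and the 42 h value was 6.16-fold below the 0 h mean of 4.33 ± 0.239 CPM (SD, n = 2). The log2 change passed the test at 28 h (-1.70 ± 0.46, adjusted p = 0.0018) and at 42 h (-2.385 ± 0.491, adjusted p = 8.5e-06, edgeR). TXNDC5, on the opposite strand, shares 212 exon bases with BMP6 and reached 200.4 CPM in these libraries.

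BMP8B (chr1:39757182-39788865, minus strand) stayed near the lower limit of the fit. It had 0.948 and 0.827 CPM at 0 h, between 0.905 and 1.66 CPM later, and was highest at 28 h. No time differed from 0 h, the 42 h change being 0.44 with an adjusted p of 0.525 (edgeR). Its reads are uncertain, since it has a near-identical copy, BMP8A, and shares 80 exon bases with PPIE on the opposite strand. BMP5 (chr6:55753653-55875590, minus strand) had 1 count in the first 0 h library, 1 at 28 h, 1 with 10 nM LDN and none in the other 10 libraries. It was not tested, and at these depths its level lay under the floor of 3 counts everywhere.

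GDF6 (chr8:96142333-96160806, minus strand), known for its roles in the skeleton and the eye, was the latest to rise. It had 0.290 and 0.365 CPM at 0 h and 0.397, 0.430, 1.06, 5.35 and 15.7 CPM at 4, 12, 20, 28 and 42 h, or 11 to 26 counts up to 12 h and 959 counts at 42 h. The libraries at 20, 28 and 42 h exceeded both 0 h libraries, and each exceeded the one before. Against 0.327 ± 0.0528 CPM at 0 h (SD, n = 2), GDF6 was 3.23-fold, 16.35-fold and 47.9-fold higher at 20, 28 and 42 h. Since it reached the 1 CPM minimum only through its libraries at 28 and 42 h, these values are given as a description, with no p.

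GDF11 (chr12:55743122-55757264, plus strand), a patterning signal of the body axis, had the smallest change at 42 h among the 6 that changed. It measured 67.05 and 63.8 CPM at 0 h, and 64.05, 58.75, 47.0, 35.5 and 21.2 CPM at 4, 12, 20, 28 and 42 h. The 4 h library lay between the 0 h libraries and the later ones lay below both, in falling order. The 42 h value was 3.085-fold below the 0 h mean of 65.4 ± 2.28 CPM (SD, n = 2). Its change passed the test at 42 h (log2 -1.39 ± 0.35, adjusted p = 3.6e-04) and missed it at 28 h (-0.81, adjusted p = 0.0729, edgeR). Scaled to library totals, the 28 h change was -0.88 and passed (adjusted p = 0.0456). SARNP, on the opposite strand, shares 378 exon bases with GDF11 and reached 55.6 CPM.

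**Figure D3:**
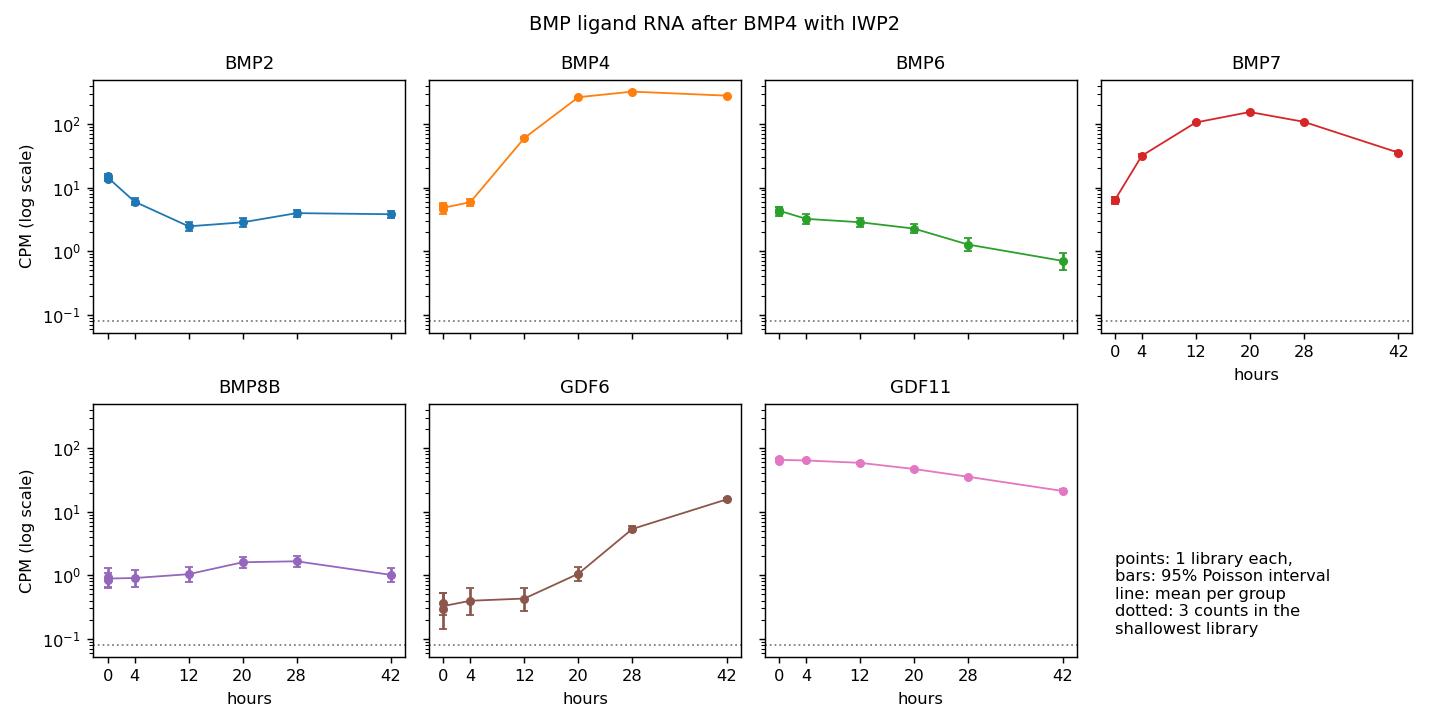
Each panel gives 1 ligand's CPM (vertical axis, log scale) against hours after BMP4 with IWP2 (horizontal axis), with 1 point a library, 95% Poisson intervals that cover counting error only, and a line through the group means. BMP4 and GDF6 end high, BMP7 peaks at 154.6 CPM at 20 h, BMP2 drops by 12 h, and BMP6 and GDF11 decline throughout. BMP5, with at most 1 count, is not drawn.

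A straight line over hours asked which ligands rose or fell steadily. In this fit 2 of 7 ligands rose and 2 fell, while 36.7% of 15976 genes passed, 19.2% as rising and 17.5% as falling. BMP4 rose by 0.193 ± 0.039 log2 units per hour (SE, adjusted p = 0.0063, edgeR). GDF6, the other one, had a slope of 0.145 ± 0.012, given without a p because it entered the fit only through its late, high libraries. BMP6 had a slope of -0.055 ± 0.007 (adjusted p = 9.2e-04) and GDF11 of -0.032 ± 0.004 (adjusted p = 7.3e-04, edgeR). No call was made for BMP2 (adjusted p = 0.0953), BMP8B (0.148) or BMP7 (0.203), whose course turned after 20 h. Without the 42 h library, BMP7 (0.164 per hour, adjusted p = 0.0179) and BMP8B (0.039 per hour, adjusted p = 0.0453) were called as rising too, which made 4.

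At 5 h the question was how each ligand followed the strength of BMP signaling, which LDN lowered in steps. BMP7 and BMP4 were graded with the dose, highest without LDN and near the untreated level at 300 nM, and BMP2 ran the other way. A line was fitted over the 5 libraries with BMP4 against the mean SMAD4 signaling of each dose, relative to that without LDN. Of the 5 ligands with a mean of at least 1 CPM, 2 rose with SMAD4 signaling and 1 fell, while 20.9% of 14907 genes passed, 10.7% as rising and 10.2% as falling. BMP5, BMP8B and GDF6 were under this minimum. Scatter about the line served as the error, since each dose had 1 library.

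BMP7 measured 38.7 CPM without LDN and 27.5, 18.2, 10.2 and 5.61 CPM at 10, 30, 100 and 300 nM, against 5.38 CPM in untreated cells. Every higher dose gave a lower level, and the 300 nM library was near the untreated one. The slope was 3.907 ± 0.165 log2 units per unit of SMAD4 signaling (SE, adjusted p = 1.5e-08, edgeR). BMP4 measured 16.1, 11.6, 8.48, 7.04 and 5.01 CPM at 0, 10, 30, 100 and 300 nM LDN, against 5.83 CPM untreated. It too was lower at each higher dose, with a slope of 2.33 ± 0.18 (adjusted p = 1.7e-06). In this experiment the opposite-strand transcript at BMP4 reached 0.452 CPM at most.

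BMP2 measured 2.68 CPM without LDN and 3.24, 3.14, 4.503 and 5.01 CPM at 10, 30, 100 and 300 nM, against 6.09 CPM untreated. Apart from a small drop from 10 to 30 nM the level rose with LDN, and its slope on SMAD4 signaling was -1.34 ± 0.29 (adjusted p = 0.0054, edgeR). That call rested on the 300 nM library: without it the slope was -1.38 with an adjusted p of 0.0640. With limma on log2(FPKM + 0.1) the slope was -1.19 (adjusted p = 0.0724), so it did not pass there either.

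BMP6 ranged from 1.81 to 2.47 CPM over the LDN doses and GDF11 from 39.6 to 43.8 CPM, and neither passed the test. Their slopes were -0.443 ± 0.365 (adjusted p = 0.436) and -0.185 ± 0.088 (adjusted p = 0.166, edgeR). BMP8B had 12 to 23 counts and GDF6 3 to 14 counts in these libraries. With no minimum, GDF6 had a slope of -2.502 ± 1.139 (adjusted p = 0.188) and BMP8B of 0.76 ± 0.81 (adjusted p = 0.685), so no dependence was detectable at this depth.

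**Figure D4:**
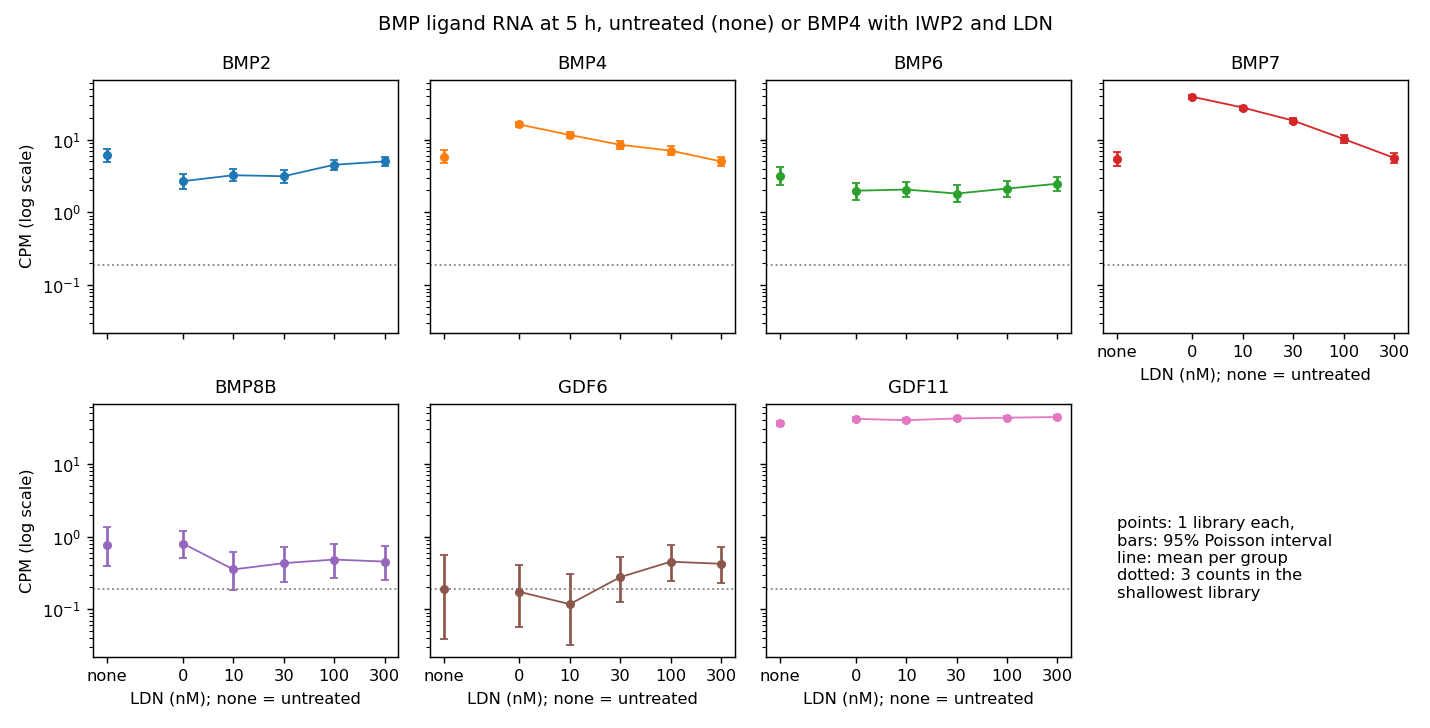
Each panel gives 1 ligand's CPM at 5 h (vertical axis, log scale) in untreated cells (none) and with BMP4, IWP2 and 0 to 300 nM LDN (horizontal axis), with 95% Poisson intervals that cover counting error only. BMP7 steps down from 38.7 to 5.61 CPM and BMP4 from 16.1 to 5.01 CPM as LDN rises, while GDF11 stays between 39.6 and 43.8 CPM. BMP5 is not drawn.

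Against untreated cells there was 1 library a side, so no test was made. The log2 ratios carry 95% intervals for counting error only, and a size of at least 1 counted as called. Without LDN, BMP7 was 7.19-fold higher than in untreated cells (log2 2.85, interval 2.53 to 3.18) and BMP4 2.76-fold higher (1.47, 1.14 to 1.81). In the time series BMP4 was only 1.225-fold above the 0 h mean at 4 h, and this difference between the experiments was not tested. BMP2 was lower, at 0.440 of the untreated level (-1.185, -1.64 to -0.74). These 3 of 5 ligands stood past the limit, as did 8.63% of 14893 genes, 6.34% as higher and 2.30% as lower, and the median log2 ratio of all genes was 0.105. BMP6 (log2 -0.69, -1.27 to -0.115) and GDF11 (0.21, 0.065 to 0.36) did not reach it.

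With 300 nM LDN the intervals of BMP2 (-0.65 to 0.10), BMP4 (-0.60 to 0.165), BMP6 (-0.90 to 0.16) and BMP7 (-0.32 to 0.45) included 0. So did those of the low ligands BMP8B (-1.96 to 0.46) and GDF6 (-0.71 to 3.575). The GDF6 ratio (log2 1.135) was past the size of 1, but on 14 counts against 3 untreated. GDF11 was 0.30 above untreated (0.155 to 0.44). The comparison with 300 nM was added after the values had been seen. The untreated library also differed in its mitochondrial share, and the part of this in the ratios was not tested. In TPM, GDF11 came first in untreated cells (44.1% of the 8 ligands) and at 100 and 300 nM (44.3% and 55.2%), and BMP7 came first at 0, 10 and 30 nM (48.1%, 44.7% and 39.2%).

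The other genes of the pathway set these courses in context. Each list is described by its counts, beside the shares of all genes called: 4.39% higher and 0.632% lower at 4 h, 12.4% and 6.01% at 20 h, 19.9% and 17.8% at 42 h, and 10.7% rising and 10.2% falling with SMAD4 signaling. Among BMP targets, which include the DNA-binding inhibitors ID1 and ID3 and the decoy receptor BAMBI, 8 of 9 rose at 4 h and 9 of 9 at 42 h, where the median log2 change was 4.93 against -0.01 over all genes. With SMAD4 signaling 8 of 8 rose. ID1 went from 60.15 ± 5.33 CPM at 0 h (SD, n = 2) to 941.6 at 4 h and 1303 at 42 h.

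Secreted antagonists bind BMP ligands and keep them from receptors, and 5 of the 10 tested rose at 4 h (4.39% of all genes). At 20 h 5 rose and 1 fell (12.4% and 6.01%), at 28 h 5 and 1 (13.3% and 7.04%), and at 42 h 6 rose and none fell (19.9% and 17.8%), with a median log2 change of 1.24. The one that fell at 20 and 28 h was FST (follistatin), at -1.17 and -1.285, which was higher at 42 h by 1.51. NOG (noggin) went from 0.394 ± 0.00188 CPM at 0 h (SD, n = 2) to 20.2 at 4 h and 149.8 at 42 h. GREM1 went from 0.708 ± 0.228 CPM at 0 h (SD, n = 2) to 27.9 at 4 h and 1.14 at 42 h. Along the SMAD4 axis 4 of 9 antagonists rose (10.7% of all genes), and NOG measured 30.1 CPM without LDN and 0.241 CPM at 300 nM.

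Of the 13 receptors and co-receptors tested, none was called at 4 h (5.02% of all genes). At 42 h 6 rose and 2 fell (19.9% and 17.8% of all genes), with a median of 0.05, so the falls were no more frequent than among all genes. At 42 h the type I receptor BMPR1A was higher by 1.44 ± 0.32 and the type II receptor BMPR2 by 2.03 ± 0.32 log2 units (SE). RGMA, a BMP co-receptor, fell by 1.74 at 42 h (adjusted p = 7.0e-06, edgeR). With SMAD4 signaling 4 of 12 rose and 2 fell (10.7% and 10.2%). The protease FURIN, which cuts BMP precursors, rose at both 4 h (1.47 ± 0.33) and 42 h (2.92 ± 0.33), whereas PCSK5, of the same family, fell by 2.19 at 42 h. In that list 1 of 6 rose at 4 h (4.39% of all genes), 2 rose and 2 fell at 42 h (19.9% and 17.8%, median 0.71), and 1 rose with SMAD4 signaling (10.7%). Counts of 1 or 2 in so short a list say nothing particular about the proteases.

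Among the 8 SMADs, 3 rose at 4 h (4.39% of all genes), and 3 rose and 1 fell at 42 h (19.9% and 17.8%, median 0.25). The inhibitory SMAD6 and SMAD7, which block type I receptors, went from 7.18 ± 0.844 and 25.0 ± 2.955 CPM at 0 h (SD, n = 2) to 708.4 and 189.7 CPM at 42 h. Both are also in the list of BMP targets, so their rises are counted in both lists. With SMAD4 signaling 5 rose and 1 fell (10.7% and 10.2% of all genes).

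Of 14 other BMP and GDF ligands 6 were tested, and their calls were most frequent at 20 h. At 4 h 1 rose (4.39% of all genes), at 20 h 5 rose (12.4%, median 1.24), and at 28 h 3 rose (13.3%). At 42 h 1 rose and 1 fell (19.9% and 17.8%, median 0.11), a share near that of all genes. Over all later times together 5 of the 6 changed (34.9%). The one at 4 h was GDF7, a close relative of GDF6, at 1.32 ± 0.557 CPM at 0 h (SD, n = 2) and 9.97 at 4 h. It also rose with SMAD4 signaling, from 0.302 CPM at 300 nM to 4.04 CPM without LDN, as did GDF3. The list of the Nodal, activin and TGF-beta branch, the branch of SMAD2 and SMAD3 that GDF11 also uses, held more falls than rises at 42 h: 2 of 9 rose and 6 fell (19.9% and 17.8% of all genes), with a median of -2.52. Not all its members activate that branch. The falls include the Nodal inhibitors LEFTY1 and LEFTY2, which share similar sequences, so that their separate counts are uncertain. The rises include the inhibin subunit INHA, an activin antagonist named after its values were seen. NODAL fell by 3.32 log2 units (adjusted p = 1.1e-09) and LEFTY1 fell by 7.48 (adjusted p = 3.4e-33, edgeR) at 42 h. At 4 h 1 of 9 rose and 1 fell (4.39% and 0.632% of all genes), with SMAD4 signaling 2 of 8 rose and 2 fell (10.7% and 10.2%), and over all later times 9 of 9 changed (34.9%).

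The genes whose courses were most like each ligand's were picked by Pearson's r over the 13 libraries, among 11312 or 11313 genes. The r was taken on log2 CPM after TMM scaling as in the fits, each experiment centred on its own mean. These are descriptions over libraries that share their conditions, with no test. Nearest to BMP7 were MIR1915HG (r = 0.994), DTNA (0.994) and PREX1 (0.991), and nearest to BMP4 AFAP1 (0.989), FAM184A (0.988) and SLC7A3 (0.988). BMP2 was most like AXIN2 (0.968), GTDC1 (0.964) and PRICKLE1 (0.953). AXIN2, a negative regulator of Wnt signaling and one of its targets, had 65.4 and 62.6 CPM at 0 h and then 22.9 and 8.08 CPM at 4 and 12 h. In the dose response it stood at 45.25 CPM untreated, 15.3 without LDN and 40.0 at 300 nM LDN, so that like BMP2 it was lowest without LDN. Wnt secretion was blocked by IWP2 in every dose-response library but the untreated one, whose medium held neither BMP4 nor IWP2.

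BMP6 was most like CKMT1B (0.9825), CLU (0.980) and UNC5D (0.979), and CKMT1B has a near-identical copy, so its counts are uncertain. GDF11 was most like ZNF749 (0.9925), the pluripotency factor SOX2 (0.987) and KIF5A (0.986). In the dose response alone, over 6 libraries, the r of GDF11 with SOX2 was 0.705. SOX2 fell with SMAD4 signaling (-0.49 ± 0.08, adjusted p = 6.4e-04, edgeR), where GDF11 gave no call, and the difference between the 2 slopes was not tested.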

How the data were processed

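RNA from GFP::SMAD4 RUES2 cells was sequenced in 13 libraries, 7 in the time series and 6 in the dose response at 5 h. Per the submitters' notes and the methods of the study, reads were trimmed by the authors (Cutadapt), aligned by STAR 2.7.8a to GRCh38, and turned into gene counts by RSEM 1.3.3. The deposited count tables hold RSEM expected counts as whole numbers, not scaled for depth. The deposited FPKM tables hold the authors' values per length and per depth. They were rescaled here to the same total in each library (TPM) to compare ligands. The ENSEMBL release and the strand setting are not given in the sources used here. No deposited column of sample values was left unused.

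Each comparison was fitted with edgeR 4.0.16 in R 4.3.3 (quasi-likelihood test after TMM scaling, with Benjamini-Hochberg adjustment over all genes tested and a threshold of 0.05), keeping genes whose mean was 1 CPM or more. The time trend used hours as a number, and the other time-series fit used time as a factor, with a single spread trend shared by all genes. The SMAD4 trend used the mean SMAD4 signaling of each LDN dose from the study's source data as the covariate only. The edgeR fits of the time trend, of the SMAD4 trend and of 42 h against 0 h were tried on simulated counts. DESeq2 1.42.0 and limma 3.58.1 on log2(FPKM + 0.1) served as alternatives, beside other scalings, filters and covariates and each library left out. Poisson intervals (95%) and the floor of 3 counts cover counting error only. Where groups hold 1 library, p-values rest on the scatter about a line or on the 0 h pair.

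The ligands and gene lists were chosen with earlier results of these data known. The genes named were the 8 ligands and at most 4 called genes a list with the highest mean CPM. The 3 genes most like each ligand whose mean reached 1 CPM in both experiments were named too. They were taken from genes averaging 5 CPM or more and ranked by r of log2(CPM + 0.1), with CPM after TMM scaling. Outside this rule, POU5F1 and LIN28A were named to complete the list of pluripotent markers. Gene positions and exon overlaps came from GENCODE and matched all 8 ligands by identifier, and 5 of the 8 had promoters in the RefSeq table. Levels and figures were made in Python 3.11.15 with pandas 2.3.3, numpy 2.4.6 and matplotlib 3.10.9, and intervals with scipy 1.17.1.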

Additional observations from a re-analysis of the deposited data

How the results depend on the processing

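Apart from the counts over all genes, 577 recomputed values were labelled the same, 5 moved, 1 reversed, 5 stronger and 3 weaker. Test results were judged by direction and side of the threshold, and counts of ligands in the fits by a limit of 1.5 times. Ratios and shares were judged by the spread of the 0 h pair or by the counting interval. The 577 include 35 values for each 0 h library used alone. Those were set against the spread of the same pair and could not fail, so they show nothing. In the time trend, the number of ligands called higher ran from 2 to 4 when 1 library was left out, and it was 4 without the 42 h library. The number called lower with SMAD4 signaling ran from 0 to 1 when 1 dose was left out, being 0 without 300 nM LDN, and was 0 with limma on FPKM (main value 1, BMP2). At 4 h the number called lower was 0 with the DESeq2 test, where BMP2 had an adjusted p of 0.0647. The 4 h change of BMP8B was -0.05 (log2) with TMM and 0.037 with library totals, on neither scale past the threshold. BMP2 passed in the time trend with DESeq2 (adjusted p = 0.0474) and with the time step as covariate (0.0498). The 5 h ratio of GDF11 to untreated was 0.37 (log2) on FPKM and 0.21 on CPM. The causes were not tested.

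Counts over all genes moved by more than 1.5 times in a few settings. Without 42 h, 1839 genes rose and 1426 fell over time. With SMAD4 signaling, limma on FPKM called 676 and 397, and the number falling was 905 without 0 nM and 975 without 300 nM LDN. The DESeq2 test called 396 and 59 genes at 4 h, 724 and 247 at 12 h, and 635 lower at 20 h, and with no filter 168 were lower at 4 h. Scaling to library totals moved the median change at 42 h to -0.23, from -0.01 with TMM. Leaving out mitochondrial genes, a setting added after the data were seen, changed no ligand's call. No paired analysis was possible because replicate numbers are given at 0 h only and the groups share fewer than 2 of them. Leaving out a 0 h library was not run in the fit with time as a factor, which then has no residual degree of freedom. Depth limits BMP5, BMP8B and GDF6 at 5 h, which had at most 1, 23 and 14 counts.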
